A study of Mus musculus with 8 samples.

Results

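The genes described here are 33 genes of the dermal fibroblast extracellular matrix, read in mouse epidermis. They were chosen by symbol, as 33 of the 16902 gene symbols that both deposited tables hold, and all 33 were found in both tables. They comprise 5 fibrillar collagen chains, 3 chains of collagen VI, 4 fibril-associated or multiplexin collagens, 4 small proteoglycan and dermatopontin genes, 6 microfibril, fibulin and adhesive glycoprotein genes, 2 thrombospondins with Ccn1, 2 PDGF receptors, and 6 genes of collagen processing and remodelling. RNA sequencing was done on epidermis that had been freed from CD1 mouse back skin with dispase, an enzyme that splits the skin at its basement membrane. The untreated groups were Ovol1 +/- controls and Ovol1 -/- mice, and the groups given IMQ (imiquimod, a Toll-like receptor agonist that inflames mouse skin) were Ovol1 +/+ controls and Ovol1 -/- mice. Ovol1 encodes a zinc-finger repressor of stratified epithelia. Each of the 4 groups held 2 libraries, 1 from a female and 1 from a male, so the control genotype changes between the untreated and the IMQ comparison. Age, the form of the Ovol1 allele and the dose of IMQ are not given in the labels used here. P-values measure the spread between these single animals, 1 of each sex per group.

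Dermal fibroblasts build the collagenous layer under the epidermis. Alpha 1 and alpha 2 chains of type I collagen wind into a triple helix, type III and type V collagens join the same fibrils, and decorin, lumican, biglycan and dermatopontin coat them and set their spacing. Procollagen is trimmed outside the cell by proteases that Pcolce enhances, the fibres are cross-linked by lysyl oxidases (Lox, Loxl1), and gelatinase A (Mmp2) and its inhibitor Timp2 take part in turnover. The PDGF receptors Pdgfra and Pdgfrb mark fibroblasts and pericytes. Some of these genes are not specific to fibroblasts: Thbs1, Ccn1, Fn1 and Timp2 are also expressed by epithelial cells. In bulk RNA, fewer cells of a type and less RNA per cell cannot be told apart, and neither can RNA of attached dermis and RNA made by epidermal cells.

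The libraries held 28.6 to 43.1 M reads. Levels are given as the deposited normalised counts, in which the reads of each library had been scaled by a single size factor; the untreated and the IMQ tables were scaled separately. Ovol1 itself was at 14582 to 16629 in the untreated controls and 26601 to 27433 in the untreated labelled knockouts, and at 7635 to 9556 and 13077 to 13457 under IMQ. A table with 1 value per gene cannot check a deletion, so the -/- libraries are called labelled knockouts. Epidermis was the main source of RNA in every library, with Krt14 at 169079 to 258042 and Krt10 at 117001 to 331017. The 13 fibroblast markers that are not matrix genes summed to 12524 to 29028, led by Vim at 6533 to 19117, Ly6a at 1549 to 11696 and Thy1 at 1526 to 3405, which other skin cells also express. Transcription factors of that list were low, Prrx1 at 6.96 to 112 and Twist1 at 1.99 to 59.4, and Twist2 had no read in 1 library. Xist was at 19844 to 56634 in the female libraries and at 38.8 to 64.9 in the male ones. The female IMQ control stood apart in genes of other tissues: the summed level of 10 skeletal muscle genes was 3576 there against 192 to 644 in the other 7 libraries, and that of 11 endothelial genes 1208 against 117 to 514.

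Thbs1, a matricellular glycoprotein that binds CD36 and activates latent TGF-beta, had the highest level of the 33 genes per length. Its mean over the 8 libraries was 260 CPM per kb, reads scaled to the library total and to the length of the transcript. Ccn1, a matricellular target of YAP and TEAD, followed at 217, and Sparc, a collagen-binding glycoprotein, at 97.3. The type I and III chains Col1a2, Col3a1 and Col1a1 came next at 48.6, 35.0 and 34.8. These means hide a wide spread for some genes and a narrow one for others. Col1a1 ranged from 1.94 to 129 CPM per kb between libraries, a 66.4-fold range, and Col3a1 had a 55.5-fold range. Fn1 (fibronectin) had a 2.35-fold range, Timp2 2.36-fold, Thbs2 2.37-fold and Col12a1 1.81-fold. The receptors were near the bottom of the order, Pdgfra at a mean of 0.15 and Pdgfrb at 0.10 CPM per kb, next to Fbn1 at 0.15, and the ranges of these 3 genes overlapped. In the females Thbs1, Ccn1, Sparc and Thbs2 led the order and Col1a1 ranked 12 of 33; in the males Ccn1, Thbs1, Sparc and Col1a2 led it and Col1a1 ranked 5.

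**Figure D1:**
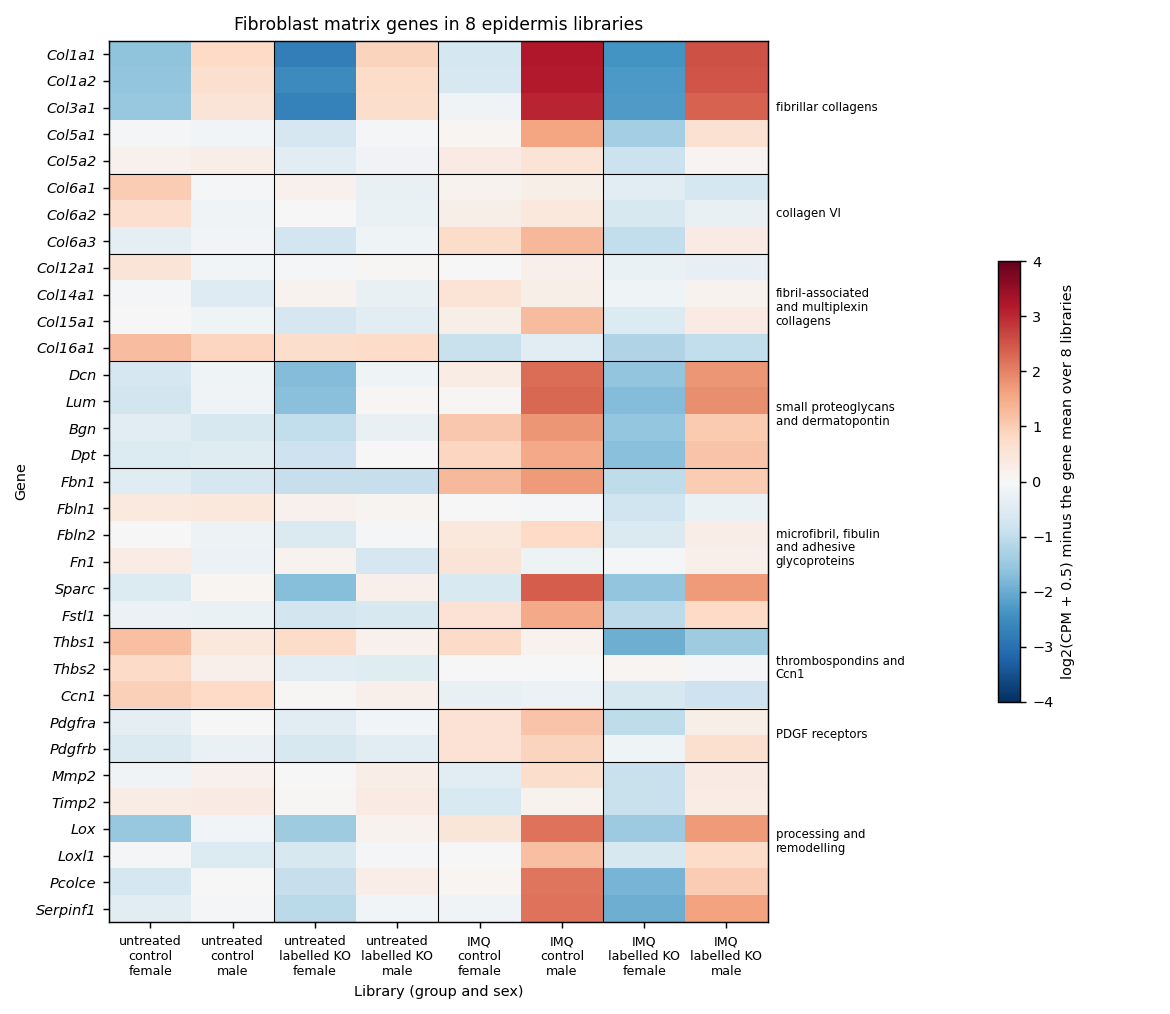
Level of each of the 33 genes in the 8 libraries, as log2(CPM + 0.5) minus the gene's own mean (CPM with TMM scaling over all 8 libraries), with genes in rows by role and libraries in columns. The type I and III chains, Dcn, Lum, Sparc, Lox, Pcolce and Serpinf1 are darkest red in the 2 male IMQ libraries and blue in the female labelled knockouts, while Thbs1, Ccn1, Col16a1 and collagen VI follow other patterns.

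The 33 genes took 0.435% of reads in the untreated female control (95% Wilson interval 0.433 to 0.437%) and 0.348%, 0.303% and 0.304% in the untreated male control, female labelled knockout and male labelled knockout. Under IMQ the shares were 0.310% in the female control, 0.519% in the male control, 0.0920% in the female labelled knockout (0.0910 to 0.0931%) and 0.299% in the male labelled knockout. These intervals cover counting error only. Thbs1 was the largest part of the untreated sums in both sexes. It made up 65.0% and 70.4% of the members' reads in the untreated females against 48.9% and 48.1% in the untreated males, whereas Col1a1, Col1a2 and Col3a1 together made up 2.12% and 1.45% against 12.9% and 16.4%. Under IMQ Thbs1 made up 67.6% in the female control and 34.2% in the female labelled knockout, against 24.6% and 14.7% in the males. The type I and III chains made up 6.40% and 5.84% in the females against 44.4% and 49.1% in the males, where they outweighed Thbs1.

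Male against female libraries. The clearest difference among the 33 genes was between the sexes, and it lay in type I and type III collagen. Col1a1, Col1a2 and Col3a1 were higher in the male library of every group, by a mean log2 fold change of 3.77, 3.55 and 3.33 over the 4 pairs, and all 3 passed the test. They were the only members called, 3 of 33 (all higher in males), where 0.109% of the 14614 genes tested were called higher in males and 0.0342% lower. A call here is an adjusted p under 0.05 in limma, adjusted by Benjamini-Hochberg over all genes tested, and a log2 fold change is on the scale of log2(value + 1), which understates changes of low genes. Of the 21 genes called, 16 were higher in males, and 4 of those 16 lie on the Y chromosome.

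Col1a1 encodes the alpha 1 chain of type I collagen (chromosome 11, 94936224 to 94953042, plus strand, mm10). Its normalised counts in the females were 994 in the untreated control, 435 in the untreated labelled knockout, 1535 in the IMQ control and 469 in the IMQ labelled knockout. In the males they were 5356, 5771, 23560.5 and 14839 in the same order. The lowest male library was therefore above the highest female one, also across tables. The log2 fold change of male against female was 3.77 (SE 0.36, adjusted p = 0.0286), and the 4 pairs gave 2.43 in the untreated controls, 3.73 in the untreated labelled knockouts, 3.94 in the IMQ controls and 4.98 in the IMQ labelled knockouts.

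Col1a2, the alpha 2 chain of the same molecule (chromosome 6, 4504814 to 4541544, plus strand), went with it. The females were at 1328, 682, 2124 and 664 in the same order of groups, and the males at 6306, 6849, 29776 and 18895. The groups did not overlap, and the log2 fold change was 3.55 (SE 0.37, adjusted p = 0.0379). Col3a1, the single chain of type III collagen (chromosome 1, 45311538 to 45349706, plus strand), was at 1119, 487, 2370.1 and 541 in the females and at 4548, 5275, 22009 and 13637 in the males. Its log2 fold change was 3.33 (SE 0.37, adjusted p = 0.0437).

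Sparc encodes osteonectin, which binds collagen I and is secreted with it (chromosome 11, 55394500 to 55423183, minus strand). Its counts were 3516, 1613, 2813 and 1451 in the females and 5519.5, 6088, 23229 and 13803 in the males. Each male library was above each female one, yet the log2 fold change of 2.21 (SE 0.41) had an adjusted p of 0.135. The pairs ran from 0.65 in the untreated controls to 3.25 in the IMQ labelled knockouts.

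Of Col1a1, Col1a2, Col3a1 and Sparc, 3 have an entry in RefSeq's promoter table (GRCm38.p6). These 3 are shown by the 250 bases before the RefSeq start site, because their levels moved together across the 8 libraries. Capitals mark matches, on either strand, to 6 short motifs. They were the TATA box in the form TATAAA, the CCAAT box, the Sp1 core in the form GGGCGG, the TEAD motif in the form GGAATG, the AP-1 motif in the form TGANTCA, and CCGTTA, the core that Ovol1 is known to bind. The Col1a2 window lies at chr6:4505368-4505617 (plus strand), that of Col3a1 at chr1:45311288-45311537 (plus strand) and that of Sparc at chr11:55420081-55420330 (minus strand). The Col1a2 and Sparc windows lie inside the gene coordinates given above.
Col1a2: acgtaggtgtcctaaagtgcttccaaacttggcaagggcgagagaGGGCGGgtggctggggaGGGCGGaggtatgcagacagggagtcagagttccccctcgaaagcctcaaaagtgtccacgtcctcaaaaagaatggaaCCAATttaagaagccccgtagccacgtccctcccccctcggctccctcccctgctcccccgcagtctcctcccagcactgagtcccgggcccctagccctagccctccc
Col3a1: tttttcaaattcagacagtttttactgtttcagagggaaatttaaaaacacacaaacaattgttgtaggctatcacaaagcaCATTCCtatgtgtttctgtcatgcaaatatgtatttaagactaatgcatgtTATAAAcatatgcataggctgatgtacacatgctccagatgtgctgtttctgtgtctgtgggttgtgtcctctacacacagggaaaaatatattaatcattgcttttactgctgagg
Sparc: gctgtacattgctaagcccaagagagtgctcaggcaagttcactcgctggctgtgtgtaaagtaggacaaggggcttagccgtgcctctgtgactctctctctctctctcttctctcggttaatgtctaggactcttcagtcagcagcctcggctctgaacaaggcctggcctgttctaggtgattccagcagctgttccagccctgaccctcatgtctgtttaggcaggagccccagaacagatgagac
The Col1a2 window holds the Sp1 core 205 and 188 bases and the CCAAT box 109 bases before the start site. The Col3a1 window holds a TEAD match 168 bases and the TATA box 117 bases before it, and the Sparc window holds none of the 6. Among all 32851 promoter windows of this length, 12.4% held the TATA box, 33.8% the CCAAT box, 32.7% the Sp1 core, 12.6% the TEAD motif, 6.75% the AP-1 motif and 2.18% the Ovol1 core. Of the 21 members with an entry, 3 had the TATA box (Ccn1, Col3a1, Thbs2), 5 the CCAAT box, 12 the Sp1 core, 3 the TEAD motif (Ccn1, Col3a1, Col6a2), 1 the AP-1 motif (Col6a1) and 0 the Ovol1 core. A match is a run of letters and not a shown binding site, and no motif was shared by the 3 windows above.

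**Figure D2:**
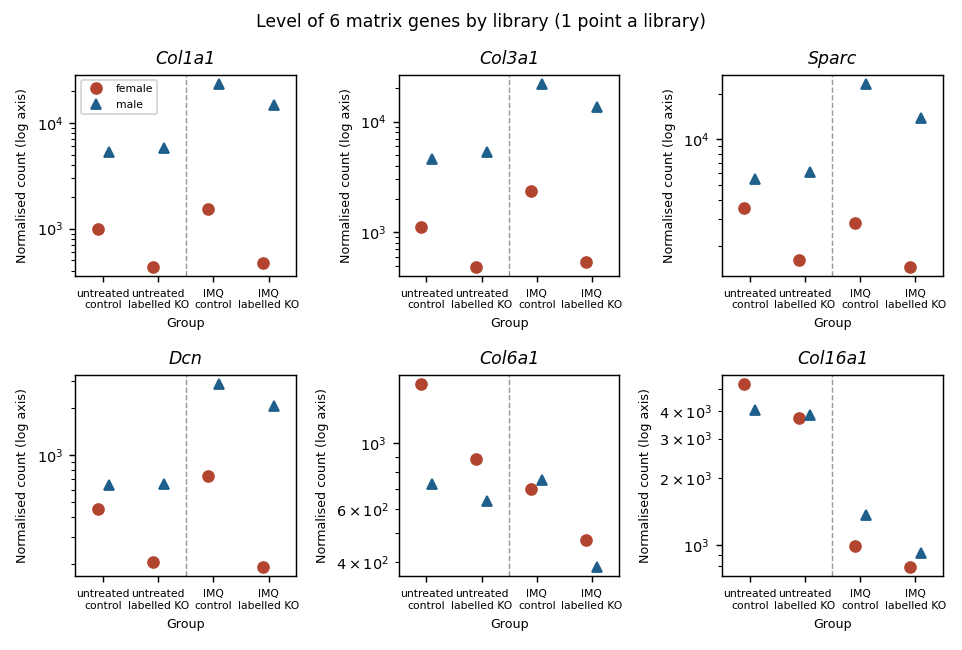
Normalised count (log axis) of Col1a1, Col3a1, Sparc, Dcn, Col6a1 and Col16a1 in each library; circles are females, triangles males, and the dashed line parts the 2 tables, which were scaled separately. The 4 male points of Col1a1 sit between 5356 and 23560.5, above all 4 female points (435 to 1535), whereas male and female points of Col6a1 and Col16a1 lie close together or in the reverse order.

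The genes that coat and cross-link collagen fibrils had sex differences in the same direction that did not pass the test. Dcn (decorin) was at 449, 206, 736 and 192 in the females and at 642, 650.2, 2853 and 2058 in the males. The male of each group was higher, but the female IMQ control exceeded both untreated males, and the log2 fold change was 1.88 (SE 0.41, adjusted p = 0.183). Lum (lumican) was at 88.1, 37.3, 136 and 28.8 against 143, 170.0, 709 and 521, which did not overlap within either table. In CPM scaled over all 8 libraries, the female IMQ control (4.45) lay above the untreated male control (3.84). The log2 fold change of Lum was 2.34 (SE 0.49, adjusted p = 0.165). Lox, a cross-linking lysyl oxidase, was at 11.2, 13.5, 83.5 and 10.9 against 61.2, 77.3, 308 and 217. The female IMQ control lay above both untreated males, and the log2 fold change was 2.71 (SE 0.39, adjusted p = 0.0806). Pcolce, the enhancer of the protease that trims the procollagen end, was at 76.9, 65.3, 120.2 and 20.9 against 136, 174, 551 and 246. These did not overlap within either table (log2 fold change 1.98, SE 0.41, adjusted p = 0.165). In the same CPM, Pcolce was at 3.94 in the female IMQ control and 3.67 in the untreated male control.

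The other 2 genes of the proteoglycan group were less divided. Bgn (biglycan) was at 201 in the female and 175 in the male untreated control, and at 70.6 and 492 in the IMQ labelled knockouts. Dpt (dermatopontin) was at 126 and 134 in the untreated controls and at 39.8 and 368 in the IMQ labelled knockouts. Serpinf1, which encodes the anti-angiogenic factor PEDF, was at 61.1 to 110.1 in 3 females and at 20.9 in the female IMQ labelled knockout, against 139 to 609.7 in the males. Mmp2 was at 504 to 1141 in the females and 1180.1 to 1547 in the males, again without overlap. Timp2, its inhibitor, was at 739 to 2032 and 1516 to 2101, which overlapped.

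The PDGF receptors were low in all libraries. Pdgfra, which marks fibroblasts, was at 20.7, 20.7, 47.7 and 5.96 in the females and 33.3, 29.9, 78.8 and 35.2 in the males. The female labelled knockout given IMQ was lowest, and the male was higher in all 4 pairs. Pdgfrb was at 5.18 to 29.4 in the females and 8.24 to 41.1 in the males, higher in the male of each group by log2 differences of 0.47 to 1.32. Fbn1 (fibrillin 1) and Loxl1 showed no common direction: in the untreated controls the male was lower, at 21.5 against 27.6 and 7.52 against 18.1, and in the IMQ labelled knockouts higher, at 92.2 against 10.9 and 37.1 against 4.97.

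Collagen VI, which forms beaded filaments around cells, did not follow types I and III. Col6a1 was at 1574, 884, 701 and 475 in the females and at 729, 639, 750.1 and 384 in the males, so that the male was lower in 3 of 4 groups (log2 fold change -0.45, SE 0.19, adjusted p = 0.393). Col6a2 was at 156 to 498 in the females and 199.7 to 345 in the males. Col6a3, the third chain, was much lower than its partners, at 11.9 to 74.3 in the females and 41.2 to 119.9 in the males, and was higher in the male of each group. Among the fibril-associated collagens, Col12a1 was at 529.8 to 1112 and 506 to 812, Col14a1 at 29.8 to 58.7 and 24.7 to 44.5, and Col16a1 at 793 to 5282 and 921 to 4038; none of them kept 1 direction over the 4 groups. Col15a1, a basement-membrane-zone collagen, was at 32.8 to 68.2 and 45.3 to 155. Fn1 was lower in the male in 3 of 4 groups, at 821 against 554, 744 against 411 and 778 against 475, and higher in the IMQ labelled knockouts, at 526 against 630.5. Fbln1 (197 to 563 and 289 to 573), Fbln2 (59.6 to 134 and 98.8 to 180.4) and Fstl1 (102 to 341 and 173 to 678) overlapped between the sexes.

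Over the 33 genes, 17 had an unadjusted p under 0.05 for a higher level in males, where 7.3% of all genes did, and 2 for a lower level, where 5.33% did. The median log2 fold change was 0.76, against -0.00 over all genes tested. The male was higher in all 4 groups for 16 of 33 members (12.1% of all genes) and lower in all 4 for 1, Thbs2 (9.68%). The fibroblast markers that are not matrix genes moved with this only in part. Of the 13, 6 were higher in the male of every group. Among these 6, Prrx1 was at 38.9, 24.9, 41.3 and 6.96 in the females against 64.4, 77.3, 112 and 88.4 in the males. Vim, Ly6a and Thy1, the highest of the list, did not keep 1 direction. Vim was at 10102, 11760, 19117 and 6533 in the females against 9067, 6566, 11652 and 11770 in the males. The summed level of the 13 overlapped between the sexes, at 14344 to 29028 and 12524 to 26429. Endothelial sums were 171 to 1208 and 117 to 514, skeletal muscle sums 192 to 3576 and 285 to 644, and macrophage sums 3018 to 6717 and 2235 to 4582. With the mean log2 level of the 10 measurable fibroblast markers as a covariate, the log2 fold changes of Col1a1, Col1a2 and Col3a1 were 2.16, 1.98 and 1.37 and none was called. That fit called 0 of all genes tested, those of the Y chromosome included, and its covariate was higher in the male of every group. The lack of calls therefore says nothing particular about these members, and the part of fibroblast content was not tested.

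The calls rest on few animals. Without either library of the untreated labelled knockouts, the IMQ controls or the IMQ labelled knockouts, limma called 0 of the 33; the log2 fold change of Col1a1 was then 3.36 to 3.78, with an adjusted p of 0.0868 to 0.149. Without either untreated control Col1a1, Col1a2 and Col3a1 were called. The test was also run on recovered reads, the whole read numbers behind the deposited values. edgeR called Col1a1 alone (0.0821% of all genes higher, 0.0342% lower), and DESeq2 called 9 members, adding Dcn, Lum, Sparc, Mmp2, Lox and Pcolce (2.03% of all genes higher, 1.25% lower).

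**Figure D3:**
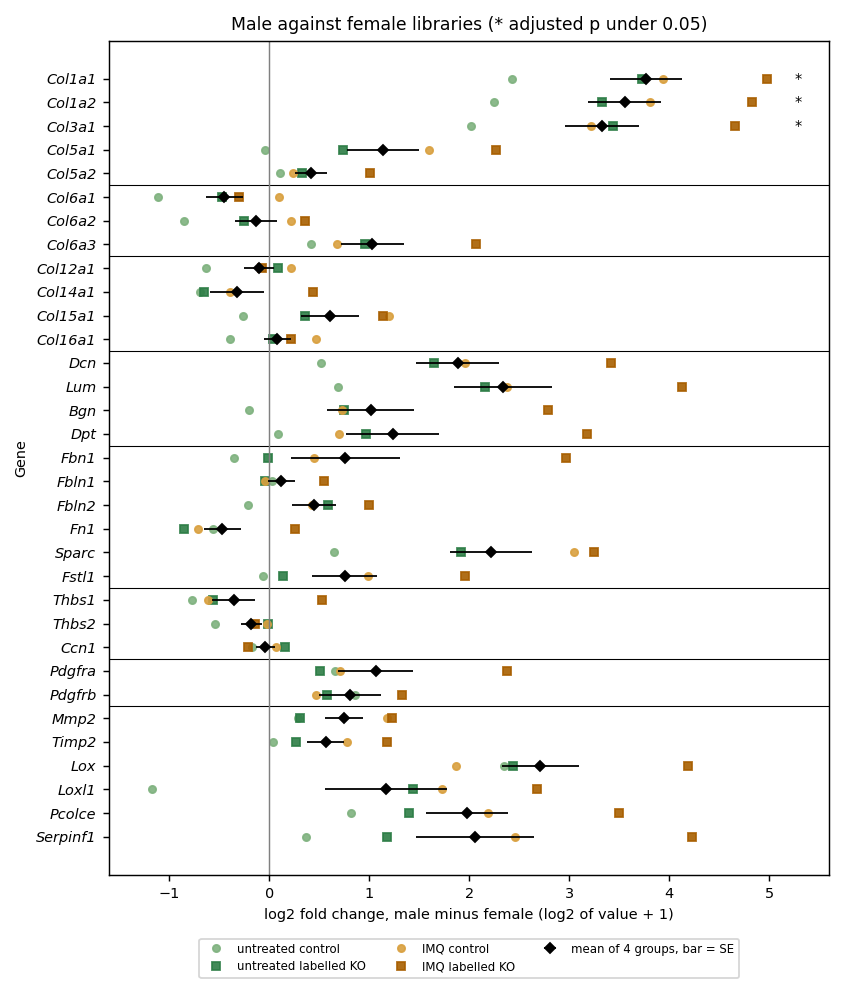
Log2 fold change of male against female for each gene: diamonds are the mean of the 4 groups with its SE, coloured points are the single pairs, and the asterisk marks the 3 called genes. The 3 called chains lie at 3.33 to 3.77; the median gene is at 0.03 in the untreated controls and at 1.96 in the IMQ labelled knockouts.

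The sexes were also compared within each table, in terms added after the values had been seen. In the untreated table limma called 0 members, where it called 0.0342% of all genes higher and 0.0205% lower in males (0.0547% either way). An unadjusted p under 0.05 was found for 9 members higher and 4 lower in males, where 4.16% and 5.28% of all genes had one. edgeR called 0 members (0.0342% and 0.0205% of all genes), and DESeq2 called 5, Col1a1, Col1a2, Col3a1, Sparc and Lox (0.534% higher, 0.86% lower). The log2 fold changes were 3.08 for Col1a1 (SE 0.36, adjusted p = 0.149), 2.79 for Col1a2 (SE 0.33, adjusted p = 0.149) and 2.73 for Col3a1 (SE 0.43, adjusted p = 0.259). Those of Lox, Sparc and Dcn were 2.39 (SE 0.56, adjusted p = 0.382), 1.28 (SE 0.29, adjusted p = 0.373) and 1.08 (SE 0.41, adjusted p = 0.515), and that of Col6a1 was -0.79 (SE 0.20, adjusted p = 0.405). Leaving out the female IMQ control or the female IMQ labelled knockout, which share the estimate of the spread, let limma call Col1a2.

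Under IMQ limma called 2 members higher in males, Col1a2 (4.32, SE 0.33, adjusted p = 0.0294) and Col1a1 (4.46, SE 0.36, adjusted p = 0.0321). Of all genes 0.0684% were called higher and 0.0137% lower (0.0821% either way). An unadjusted p under 0.05 was found for 21 members higher and 0 lower in males, where 6.14% and 3.83% of all genes had one. Col3a1 was at 3.93 (SE 0.43, adjusted p = 0.0710), Sparc at 3.15 (SE 0.29, adjusted p = 0.0502) and Mmp2 at 1.20 (SE 0.12, adjusted p = 0.0548). Pcolce was at 2.84 (SE 0.37, adjusted p = 0.0909) and Dcn at 2.68 (SE 0.41, adjusted p = 0.113). edgeR called Col1a2 (0.0616% of all genes higher, 0.0137% lower) and DESeq2 15 members (1.25% higher, 0.649% lower). Leaving out 1 library at a time gave 0 to 10 called members: 10 without the female IMQ control, 6 without the male IMQ control, 0 without either IMQ labelled knockout, and 3 without any 1 untreated library.

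The log2 fold change of male against female was shifted towards the males under IMQ for 32 of 33 members, with a median shift of 0.90 against 0.01 over all genes. A shift is not always a wider gap: Col6a1 went from -0.79 to -0.10 and Fn1 from -0.71 to -0.22. limma called 0 members and 0% of all genes. An unadjusted p under 0.05 was found for 14 members with a larger male excess under IMQ, where 3.79% of all genes had one, and for 0 in the other direction (2.31%). edgeR called 0 members, and DESeq2 called Sparc and Serpinf1 (0.429% of all genes upwards, 0.219% downwards). The smallest p was that of Mmp2, with a shift of 0.90 (SE 0.16, adjusted p = 0.570). Sparc followed at 1.86 (SE 0.40, adjusted p = 0.596), Timp2 at 0.83 (SE 0.20) and Serpinf1 at 2.57 (SE 0.65). Col5a1, a chain that sets fibril diameter, was at 1.58 (SE 0.41) and Fstl1 at 1.44 (SE 0.38), and the adjusted p of these last 4 was 0.678. Col1a1 was at 1.38 (SE 0.51, adjusted p = 0.776), Col3a1 at 1.21 (SE 0.61, adjusted p = 0.814) and Dcn at 1.60 (SE 0.58, adjusted p = 0.776).

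Chain ratios. Within a library, ratios of chains do not depend on the scaling. The chains of type I collagen stayed close to 1 ratio while the level of Col1a1 ranged 66.4-fold and that of Col1a2 53.6-fold. Col1a1 to Col1a2, in reads per kb, was 0.68, 0.58, 0.65 and 0.64 in the females and 0.77, 0.76, 0.71 and 0.71 in the males, in the order of groups above. Every male ratio was above every female ratio. Col3a1 to Col1a1 was 1.20, 1.19, 1.65 and 1.23 in the females and 0.90, 0.97, 1.00 and 0.98 in the males, so that type III outweighed the alpha 1 chain of type I in the females. Col5a1 to Col5a2 varied from 0.14 to 0.49 and Col6a1 to Col6a2 from 1.85 to 3.04, and Col6a3 to Col6a1 had a 7.87-fold range, from 0.0093 to 0.0728. Another 3 ratios were added after the values had been seen. Col1a1 to Pdgfra was 24.2 to 90.7 in the females and 185 to 486 in the males, and Col1a1 to Prrx1, the fibroblast transcription factor, was 14.6 to 56.3 and 62.4 to 176. Col1a1 to Col6a1 was 0.34 to 1.51 and 5.08 to 26.7. The sexes did not overlap in any of these 3 ratios. Col1a1 had the largest log2 fold change between the sexes of all members, so these ratios restate that it was further apart than Pdgfra, Prrx1 or Col6a1. Pdgfra and Prrx1 rest on few reads in the female IMQ labelled knockout, 6 and 7.

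Genotypes in untreated epidermis. The members with the clearest separation were Thbs2 and Ccn1, both lower in the labelled knockout of either sex, and neither passed the test. limma called 0 of the 33 and 0% of all genes. An unadjusted p under 0.05 was found for 2 members, both lower, where 1.67% of all genes had one, and for 0 higher (2.79%). edgeR called 0 members, and DESeq2 called Thbs2 and Ccn1 (0.475% of all genes higher, 0.185% lower). Thbs2, an anti-angiogenic thrombospondin (chromosome 17, 14665500 to 14694235, minus strand), was at 5524 in the control female and 3801 in the control male, against 2399 in the female and 2379 in the male labelled knockout. Its log2 fold change was -0.94 (SE 0.17, adjusted p = 0.346). Ccn1 was at 28897 (female) and 25727 (male) with the control genotype, against 15736 and 17579. Its log2 fold change was -0.71 (SE 0.14, adjusted p = 0.346). The genotypes did not overlap for either gene, where 16.4% of all genes lay lower without overlap. The next smallest p values were those of Col5a2 (log2 fold change -0.49, SE 0.31), Col6a1 (-0.51, SE 0.34), Col16a1 (-0.29, SE 0.19) and Col6a2 (-0.41, SE 0.29), each with an adjusted p of 1.00.

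Ccn1 is shown by the same window of its promoter, at chr3:145649986-145650235 (minus strand), since it stood lower in the labelled knockouts of both tables. Capitals mark the same 6 motifs.
Ccn1: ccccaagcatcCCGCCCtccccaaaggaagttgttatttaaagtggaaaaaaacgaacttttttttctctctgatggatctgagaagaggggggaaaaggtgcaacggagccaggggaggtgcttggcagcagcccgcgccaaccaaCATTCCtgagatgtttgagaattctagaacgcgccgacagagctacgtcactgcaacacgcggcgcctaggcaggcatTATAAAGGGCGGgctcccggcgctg
The window holds the Sp1 core 239 and 19 bases, a TEAD match 103 bases and the TATA box 25 bases before the start site. The TATA box and the nearer Sp1 core stand side by side, and the Ovol1 core is not among these letters.

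Part of the collagens and the proteoglycan group differed in direction between the sexes. Col1a1, Col1a2, Col3a1, Col5a1, Col12a1, Dcn, Lum, Bgn and Dpt were lower in the female labelled knockout and higher in the male one. The male differences were small for most of them, from a log2 difference of 0.02 for Dcn and 0.11 for Col1a1 to 0.59 for Dpt. The sign for Dcn depends on the scaling: in CPM it was at 17.3 in the control male and 17.1 in the labelled knockout male. Col5a2, Col15a1, Col16a1 and the collagen VI chains were lower in both, and Col14a1 was higher in both. In the females 30 of 33 members were lower in the labelled knockout (50.3% of all genes), with a median log2 difference of -0.61. In the males 16 were lower (49.3%), with a median of 0.01. Col1a1 was at 994 against 435 in the females and 5356 against 5771 in the males (log2 fold change -0.54, SE 2.48, adjusted p = 1.00). Col3a1 had a log2 fold change of -0.49 (SE 2.21, adjusted p = 1.00) and Dcn of -0.55 (SE 1.16, adjusted p = 1.00). In these SEs the spread within a group holds the sex difference. Both labelled knockouts lay below both controls for 8 members (Col5a2, Col15a1, Col16a1, Fbn1, Fbln1, Thbs2, Ccn1 and Fstl1), where 16.4% of all genes did, and above both for 0 (17.4%). Summed fibroblast markers were 14344 and 16452 with the control genotype against 15361 and 12524. Their part in these values was not tested.

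Genotypes under IMQ. The largest separation was in Thbs1 (chromosome 2, 118111876 to 118127133, plus strand). It was at 63686 in the control female and 41659 in the control male, against 9802 and 14176, and both labelled knockouts lay below every other library. The log2 fold change was -2.13 (SE 0.35, adjusted p = 0.0553), with -2.70 between the females and -1.56 between the males, and it missed the threshold. With sex as a replicate block limma gave an adjusted p of 0.0268 and called Thbs1 alone among the 33 (0.588% of all genes called higher, 1.86% lower). Untreated, Thbs1 had been at 105351 in the control female and 61561 in the control male, against 77863 and 52597 (log2 fold change -0.33, SE 0.34, adjusted p = 1.00).

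**Figure D4:**
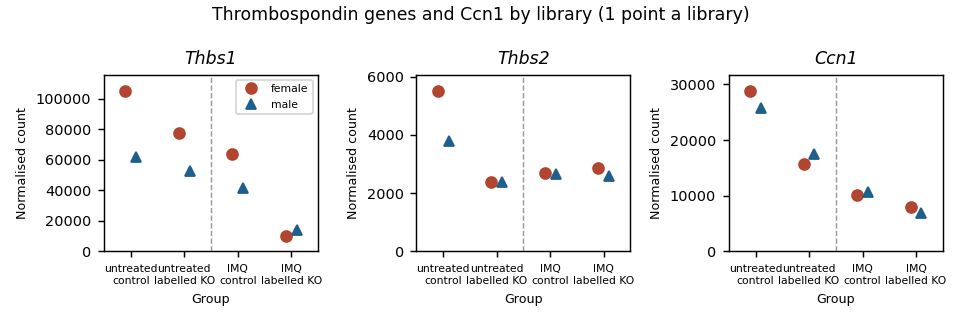
Normalised counts of Thbs1, Thbs2 and Ccn1 by library on linear axes from 0; circles are females, triangles males, and the dashed line parts the 2 separately scaled tables. Thbs1 is lowest in the 2 IMQ labelled knockouts (9802 and 14176), Thbs2 is highest in the untreated controls (5524 and 3801) and level in the other 6 libraries, and Ccn1 is lower in the labelled knockouts of each table.

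limma called 0 of the 33 under IMQ, where it called 0.157% of all genes higher and 0.281% lower (0.438% either way). edgeR called 0 members (0.0821% of all genes higher, 0.123% lower) and DESeq2 called Thbs1 (4.43% higher, 4.99% lower). An unadjusted p under 0.05 was found for 8 members, all lower (Thbs1, Ccn1, Col6a2, Col5a2, Col6a3, Fbln1, Pdgfra and Fbn1), where 11.9% of all genes had one, and for 0 higher (10%). Ccn1 was at 10078 (female) and 10592 (male) against 8041 and 6937 (log2 fold change -0.47, SE 0.14, adjusted p = 0.125).

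Collagen VI was lower in the labelled knockout of either sex, without overlap for any chain, where 26.4% of all genes lay lower without overlap. Col6a3 rests on 12 reads in the female labelled knockout. Col6a1 was at 701 and 750.1 against 475 and 384, Col6a2 at 296 and 345 against 156 and 199.7 (log2 fold change -0.85, SE 0.29, adjusted p = 0.165), and Col6a3 at 74.3 and 119.9 against 11.9 and 53.3 (-1.85, SE 0.68, adjusted p = 0.181). Col5a2, a minor chain of type I fibrils, was at 576 and 678 against 248 and 497 (-0.83, SE 0.31, adjusted p = 0.181). Fbln1 was at 351 and 340.2 against 197 and 289 (-0.53, SE 0.20, adjusted p = 0.182). Thbs2 was at 2702 and 2655 against 2848 and 2588, with overlap and a log2 fold change of 0.02 (SE 0.17).

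The female libraries were further apart than the male ones. Of the 33 genes 32 were lower in the female labelled knockout than in the female control (51.3% of all genes), with a median log2 difference of -1.55, and 31 were lower between the males (50.5%), with a median of -0.61. Fbn1 was at 115 against 10.9 in the females and 156 against 92.2 in the males, and Pdgfra at 47.7 against 5.96 and 78.8 against 35.2. Col1a1 had a log2 fold change of -1.19 (SE 2.48, adjusted p = 0.819), Col3a1 of -1.41 (SE 2.21, adjusted p = 0.752) and Dcn of -1.20 (SE 1.16, adjusted p = 0.575). Both labelled knockouts lay below both controls for 14 members, where 26.4% of all genes did, and above both for 0 (26.6%).

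The summed fibroblast markers were lower in the labelled knockout of both sexes, while endothelial and muscle sums were lower in the female one and higher in the male one. For 13 fibroblast markers the sums were 29028 (female) and 26429 (male) with the control genotype against 20717 and 21537. This fall came mainly from Vim in the females and mainly from Ly6a in the males, so the sums do not show a shared change. Vim was at 19117 (female) and 11652 (male) with the control genotype against 6533 and 11770. Ly6a was at 7627 and 11696 against 10606 and 7613, and Thy1 at 1565 and 2036 against 3405 and 1526. The sums were 1208 and 361 against 351 and 514 for 11 endothelial genes, 3576 and 285 against 192 and 644 for 10 muscle genes, 6717 and 4582 against 3260 and 4183 for 8 macrophage genes, and 3872 and 3901 against 3911 and 3333 for 10 pericyte and smooth muscle genes. Of the 10 measurable fibroblast markers, each counted once, 9 had a negative log2 fold change and 1 a positive one, with a median of -1.14. Prrx1 was at 41.3 and 112 against 6.96 and 88.4. With the fibroblast markers as a covariate the median log2 fold change of the 33 was 0.05 in place of -1.08, and that of Thbs1 was -2.39 (adjusted p = 0.231). In that fit Col1a1, Col3a1 and Dcn changed sign, to 4.35, 3.58 and 1.79, and limma called 0 of all genes. The median is therefore not a stable adjusted value, and the part of fibroblast content was not tested. Without the male labelled knockout limma called 6 members (Col5a2, Bgn, Dpt, Fbn1, Pdgfra and Thbs1), where it called 0.356% of all genes higher and 1.69% lower. That fit rests on the female labelled knockout as the lone library of its group, assumed to vary like the others.

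**Figure D5:**
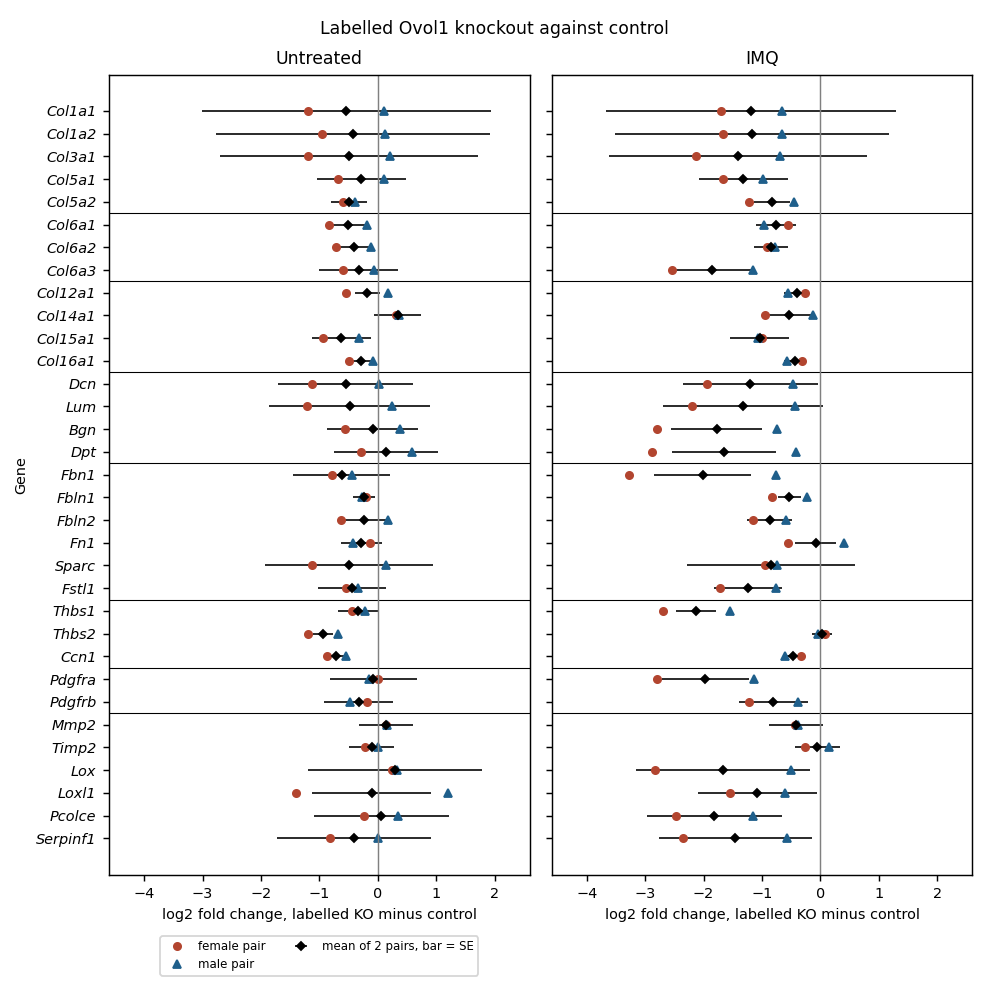
Log2 fold change between the genotypes (labelled knockout minus control) for each gene, untreated and under IMQ: circles are the female pair, triangles the male pair, and diamonds their mean with its SE. Untreated, the male pair has a median of 0.01 and the female pair of -0.61; under IMQ both pairs lie left of 0 for most genes, the female pair further, and the SE bars of Col1a1, Col1a2 and Col3a1 span the sex difference.

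The difference between the genotype effects under IMQ and untreated was called for 0 of the 33 and 0% of all genes by limma, for 0 by edgeR, and for Thbs1 by DESeq2 (0.287% of all genes higher, 0.48% lower). An unadjusted p under 0.05 was found for 1 member in each direction, where 4.05% of all genes had one upwards and 6.02% downwards. Thbs2 had a difference of 0.96 (SE 0.24, adjusted p = 0.476), and Thbs1 one of -1.80 (SE 0.49, adjusted p = 0.476). Pdgfra was at -1.90 (SE 1.05, adjusted p = 0.553), Col6a3 at -1.52 (SE 0.96, adjusted p = 0.595), Col14a1 at -0.87 (SE 0.57, adjusted p = 0.603) and Bgn at -1.69 (SE 1.11, adjusted p = 0.605). Col1a1 was at -0.65 (SE 3.5, adjusted p = 0.961), Col3a1 at -0.92 (SE 3.13, adjusted p = 0.936) and Dcn at -0.65 (SE 1.64, adjusted p = 0.907). The median over the 33 was -0.65, against -0.03 over all genes. Because the controls were Ovol1 +/- untreated and Ovol1 +/+ under IMQ, treatment and control genotype cannot be told apart here.

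IMQ against untreated. The libraries of the 2 tables were put on a common scale as CPM with TMM factors, and no test was made. The 4 pairs were matched by sex and group label, not by animal. Control pairs set Ovol1 +/+ mice under IMQ against untreated Ovol1 +/- mice, so treatment and control genotype cannot be told apart in them. Type I and III collagen were higher under IMQ in all 4 pairs. Col1a1 was higher by log2 differences of 0.90 in the control females, 2.40 in the control males, 0.38 in the labelled knockout females and 1.67 in the labelled knockout males, and Col3a1 by 1.36, 2.54, 0.42 and 1.68. Col1a2, Col15a1, Dcn and Pdgfrb were also higher in all 4 pairs (6 of 33 members, 33.5% of all genes). Col16a1, Fbln1, Thbs1, Ccn1 and Timp2 were lower in all 4 (5 of 33, 32.2% of all genes). Col16a1, a fibril-associated collagen of the dermal-epidermal zone, had log2 differences of -2.12, -1.29, -1.93 and -1.73 in the same order, and Ccn1 of -1.23, -1.01, -0.68 and -1.03. Those of Thbs1 were -0.44 and -0.29 for the control pairs, which also differ in Ovol1 genotype, and -2.70 and -1.58 for the labelled knockouts.

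The median log2 difference of the 33 genes was above 0 in 3 of the 4 pairs. It was 0.27 in the control females, 1.41 in the control males, -0.30 in the labelled knockout females and 0.75 in the labelled knockout males, and between -0.03 and 0.03 over all genes. A difference of at least 2-fold upwards was found for 7, 20, 0 and 13 of the 33 in the same order, where 7.84%, 9.7%, 13% and 10.9% of all genes reached it, and downwards for 2, 2, 2 and 3, where 6.93%, 9.42%, 15.8% and 11.3% did. In the control males Col3a1 was at 2.54, Col1a2 at 2.51, Lum at 2.44 and Bgn at 2.39. In the labelled knockout females Col3a1 was at 0.42, Lum at -0.06, Bgn at -0.56 and Dpt at -0.85.

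Other matrix genes were listed by function, with 91 of 96 listed genes passing the filter. Of 19 tested genes of collagen synthesis and secretion, 1 was called between the sexes: Adamts2, the protease that trims the N-terminal end of type I and III procollagen, was at 23.8 to 124 in the females and 138 to 666 in the males (log2 fold change 2.61, SE 0.25, adjusted p = 0.0269). The prolyl hydroxylase, lysyl hydroxylase and chaperone genes of that list were not called in any comparison; its median log2 fold change was 0.00 for males against females and -0.45 for the genotypes under IMQ. Of 13 matrix proteases and inhibitors, Ctsk (cathepsin K, a collagen-degrading protease) was called between the sexes, at 20.7 to 62.4 in the females and 159.7 to 1113 in the males (log2 fold change 3.63, SE 0.41, adjusted p = 0.0437). Between the genotypes under IMQ limma called 0 of the 13, whose median log2 fold change was 0.15; 4 had an unadjusted p under 0.05 for a higher level in labelled knockouts (10% of all genes) and 1 for a lower level (11.9%). Mmp3 (stromelysin 1) was at 237 (female) and 1253 (male) in IMQ controls against 3318 and 5864 in labelled knockouts (log2 fold change 3.01, SE 0.80, adjusted p = 0.113). Timp1, a metalloproteinase inhibitor, was at 185 and 293 against 754 and 494 (1.38, SE 0.42, adjusted p = 0.134), and Mmp9 (gelatinase B) at 791 and 372 against 264 and 214 (-1.19, SE 0.35, adjusted p = 0.128). Aebp1, a collagen-binding protein of fibroblasts noticed among the called genes after the values were seen, was at 83.9 to 185 against 299.5 to 1071 (log2 fold change 2.06, SE 0.17, adjusted p = 0.0122).

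Of 22 other stromal matrix genes 0 were called in any of the comparisons by limma; 5 had an unadjusted p under 0.05 for higher (7.3% of all genes) and 3 for lower levels in males (5.33%), and 1 for higher (10%) and 5 for lower levels in labelled knockouts under IMQ (11.9%). The 3 smallest p values between the sexes were those of Loxl2, Prelp and Fmod. Loxl2 (log2 fold change 1.51, SE 0.29, adjusted p = 0.139) and Prelp (1.91, SE 0.40, adjusted p = 0.165) were higher in the males. Fmod (fibromodulin), a small proteoglycan like Lum, went the other way, at 7.95 to 39.7 in the females and 0 to 5.71 in the males (log2 fold change -2.51, SE 0.55, adjusted p = 0.183). Its male values were near the floor. Of 16 basement membrane and anchoring genes limma called 0; 4 had an unadjusted p under 0.05 for a lower level in IMQ labelled knockouts (11.9% of all genes), and 1 for a higher (7.3%) and 3 for a lower level in males (5.33%). Col7a1, the anchoring fibril collagen that keratinocytes also make, had a log2 fold change of -0.52 (SE 0.15, adjusted p = 0.128) between the genotypes under IMQ. Among 3 tested PDGF ligands limma called 0, and 2 had an unadjusted p under 0.05 for a lower level in IMQ labelled knockouts (11.9% of all genes). Pdgfb was at 309 and 369 against 185 and 210.2 there (log2 fold change -0.77, SE 0.21, adjusted p = 0.112).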

How the data were processed

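RNA of 8 epidermis libraries was sequenced as stranded polyA-selected mRNA. Per the submitters' processing notes, Trimmomatic 0.35, STAR 2.5.2a, DESeq2 1.24.0 and R 3.6.1 were used with mm10. No source used here names the read counter or the gene annotation. Both deposited tables hold a normalised signal that the authors made by dividing counts by a size factor per library, separately for the untreated and the IMQ table. In every library all values were whole multiples of 1 step (within 0.001), which gave back the reads, 28.6 to 43.1 M per library.

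The test was limma 3.58.1 (R 4.3.3) on log2(value + 1), with a trended, robust prior and Benjamini-Hochberg adjustment, on 14614 genes with a mean of at least 10 in either table. Genotype contrasts used 4 group means over the 8 libraries, and the sex contrast added a sex term. The test was checked on simulated counts with the same spread for all genes and no sex difference in the genotype contrasts. That check does not cover genotype tests of genes that differ by sex. edgeR 4.0.16 and DESeq2 1.42.0 on recovered reads, other filters, pseudocounts and scalings, a sex block, a covariate of 10 fibroblast markers and leaving out each library were alternatives. IMQ and untreated libraries were compared as log2(CPM + 0.5) with TMM factors, with no test. Coordinates are GENCODE's for mm10, and lengths those of 1 transcript per gene. Figures and tables used Python 3.11.15 and matplotlib 3.10.9.

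The members and gene lists were chosen with earlier results of these data known. Every member is given by library; fold changes with SE and p are given for called members, or else the 6 with the smallest p, and always for Col1a1, Col3a1 and Dcn. Of each function list, called genes are named, or else some of the 3 with the smallest p. The result of 1 further function list is not reported here. Replicate numbers follow sex.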

Additional observations from a re-analysis of the deposited data

Results flagged for a closer look

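In CPM with TMM factors, Mmp2, the gelatinase, was lower under IMQ than untreated in both female pairs and higher in both male pairs. No other member showed this pattern, which 1.43% of all genes had. The log2 differences of CPM were -0.31 in the control females, -0.87 in the labelled knockout females, 0.55 in the control males and 0.05 in the labelled knockout males. The sign of the last value depends on the scaling. Without TMM factors the share of reads was lower under IMQ there, at 1241 of 34.0 M against 1372 of 34.9 M untreated. The male mean exceeded the female mean by 0.892. In the test of the difference between the sex effects, limma gave Mmp2 a value of 0.90 (SE 0.16, adjusted p = 0.570), which was not called.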

How the results depend on the processing

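With 1 library of each sex per group, genes that differ by sex have SEs too wide for a genotype call. The numbers pair sexes, not animals; deviations of same-numbered libraries correlated at 0.145 to 0.463. With the replicate block limma called 8 genes untreated and 358 under IMQ (edgeR 6 and 282), and 1 member under IMQ with either tool, Thbs1; the block changed no other member's call, and edgeR's block put the median of the genotype difference at -0.40.

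Untreated, genes called were 5 (pseudocount 5), 13 (fibroblast covariate), 8 (each table alone) and 89 (DESeq2, 2 members; Col3a1 at 0.0067). Under IMQ they were 0 (plain moderation, covariate, each table alone), 30 (edgeR) and 1242 (DESeq2, 1 member). With the covariate the IMQ median was 0.048, and Col1a1, Col3a1 and Dcn were at 4.35, 3.58 and 1.79. For the genotype difference the median was -0.63 (TMM), -0.61 (quantile), -0.52 (edgeR), -0.50 (DESeq2, 1 member and 99 genes) and 0.40 (covariate, with Col6a3 at 0.087, Bgn 0.052, Col1a1 4.51, Col3a1 3.73, Dcn 2.13).

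Between the sexes, members called were 1 (no filter, edgeR), 0 (plain moderation, covariate) and 9 (DESeq2), and genes 8 (plain), 452 (DESeq2) and 0 (covariate, median -0.24, Dcn -0.14). Untreated, DESeq2 called 5 members, and the covariate put the median and Dcn at -0.49. Under IMQ members called were 4 (no filter), 0 (plain, covariate, median 0.19), 1 (edgeR) and 15 (DESeq2); for the sex difference DESeq2 called 2.

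Leaving out 1 library gave these ranges. Untreated genotype: 0 to 2 genes, Col1a1 -2.40 to 1.32, Col3a1 -2.21 to 1.23, Dcn -1.38 to 0.28, Col6a1 -1.07 to 0.044, Col6a2 -0.84 to 0.011. IMQ genotype: 0 to 6 members, 0 to 299 genes, median -2.39 to -0.19, Col1a1 -3.68 to 1.30, Col3a1 -3.74 to 0.92, Dcn -2.91 to 0.51. Genotype difference: median -1.99 to 0.14, Col1a1 -3.14 to 1.84, Col3a1 -3.24 to 1.41, Dcn -2.36 to 1.06. Sex: 0 to 3 members, 7 to 16 genes; untreated 0 to 1, IMQ 0 to 10 members; sex difference median 0.62 to 1.38. IMQ minus untreated in labelled knockouts: median -0.76 to 0.89. The causes were not tested.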
